A study of Mus musculus with 14 samples.

Results

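Of 39193 merged peak regions on chr1 to chr19 of the mouse, 527 held a peak of each of the 10 CUT&RUN lists of the series, 1.34% of all. The count was 820 without the list of BCOR Adult replicate 1, and 8 with every list reduced to the 1339 strongest peaks by fold. CUT&RUN uses an antibody to bring a nuclease to a protein on chromatin, and the DNA it releases is sequenced. The lists were for the proteins BCOR and Otx2 in retinal cells of CD1 mice of the line labelled WT. BCOR and Otx2 each had 1 library at embryonic day 14 (E14), 2 at the day of birth (P0) and 2 in the adult, and the labels name no allele or agent for any of them beyond the antibody target. Electroporation, described in a protocol text that all samples share, is tied by the age labels to the RNA samples alone. The labels do not say whether replicates came from separate animals. The p-values below come from exchanging protein labels between libraries, and differences between libraries may be technical. Peaks of all 10 lists that overlapped by 1 base or more were merged, and the members were chosen by a peak of every list lying in the merged region. The presence of peaks is therefore no finding about them. The rule read no fold and no summit, but it used the ends of the peaks. A wide peak overlaps others more readily, and the summits of 2 peaks that overlap each other cannot lie far apart. Merging was chained, however, so 2 peaks of a member can be joined through other peaks without overlapping each other. A strong peak is also more readily called in every list, so wide peaks, high folds and close summits in the members are partly fixed by the choice. The fold is the ratio of signal to background that the authors' peak caller gives a peak, and the summit is the base of highest signal. Positions are those of the peak lists, on mm9 and counted from 1, and no gene is named for a region because no annotation of mm9 was used here. For the same reason no sequence of a region is given, and the labelled retinal identity of the samples was not checked, since peak lists without genes hold no markers.

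BCOR is a corepressor: it does not bind DNA through a sequence of its own but is brought to chromatin by partners such as BCL6 and as a subunit of a variant Polycomb repressive complex that also holds PCGF1, KDM2B and RING1 proteins. KDM2B is known to bind unmethylated CpG-rich DNA, which places this complex at many CpG islands. Otx2 is a homeodomain transcription factor that retinal cells need to become photoreceptors and bipolar cells, and it is closely related to CRX, which binds a like motif. The design text of the series calls the second target Otx2/Crx, and each sample is labelled Otx2.

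The lists differed in length and in threshold, and read depth is unknown. On chr1 to chr19 the 5 BCOR lists held between 1339 and 10736 peaks, and the 5 Otx2 lists between 7183 and 24884. Peaks reached a q-value of 0.248 in each adult BCOR list, 0.0999 in the BCOR and 0.0996 in the Otx2 list of E14, and at most 0.0496 elsewhere. In the lists as deposited, stage and calling threshold therefore cannot be told apart for BCOR or for E14, while the P0 and adult lists of Otx2 had like ceilings. With a q-value of 0.05 or less asked of every list, 508 members were left. No 2 peaks of different lists had the same ends and fold. The members took 40.7 and 22.3% of the adult BCOR peaks and 2.25 to 10.3% of the peaks of each of the other 8 lists. In 19 members an adult BCOR peak had a q-value above 0.05.

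Most regions that missed the group by a single list lacked a peak of an adult list, but not of every adult list alike. A further 593 regions held peaks of 9 lists, and in 510 of them, 86.0%, the list without a peak was an adult one. BCOR Adult replicate 1 was the list without a peak in 293 of them (49.4%), Otx2 Adult replicate 1 in 138, BCOR Adult replicate 2 in 78 and BCOR P0 replicate 1 in 54. Each of the other 6 lists was the one without a peak in 1 to 14 regions. Otx2 Adult replicate 2, also an adult list, had the lowest count of all, 1. The adult BCOR lists were the shortest, with 1339 and 2445 peaks on chr1 to chr19. The 3 strongest regions that missed the group all lacked a peak of BCOR Adult replicate 1. They were chr15:81560095-81560821, chr5:36826879-36827468 and chr3:130412077-130412919, and their mean percentile by fold over the 9 remaining lists was 5.37, 5.97 and 9.78, where 0 is the strongest peak of a list. At chr3:130412077-130412919 the fold was 11.2 in BCOR Adult replicate 2, and 68.6 and 85.1 in the Otx2 P0 lists.

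The members were longer at the median than other regions and held, in most cases, a single peak of each list. Their length was 421 bases at the lowest, 976 at the median and 5797 at the highest, against a median of 869 for regions with 9 lists and 457 for all regions that were not members. A region merged from more lists is longer by construction. In 457 members (86.7%) every list had exactly 1 peak. The 527 members held 5487 peaks, up to 25 in a single region, and 26 members were longer than 2000 bases. Members were spread over every chromosome examined, from 53 on chr11 and 49 on chr7 to 9 on chr18. As a share of the merged regions of a chromosome they ran from 0.657% on chr3 and 0.670% on chr18 to 1.90% on chr17 and 2.09% on chr7. The median gap between neighbouring members of a chromosome was 1658 kb over 508 gaps. Of those gaps 15 were under 10000 bases, and 13 of the 15 lay between low-fold members of chr9 described below.

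The 10 members described first have the best mean percentile by fold over all lists, and that mean chose them. Single lists could differ: among the 527 members chr4:115634923-115636124 ranked 412 and chr17:83913418-83914081 ranked 394 in the BCOR list of E14. The first of the 10 was chr7:51559670-51561142, with a mean percentile of 2.88. Its BCOR folds were 11.6 at E14, 9.58 and 15.0 in the P0 libraries and 12.9 and 19.9 in the adult libraries. Its Otx2 folds were 11.9 at E14, 63.4 and 63.2 in the P0 libraries and 35.5 and 85.7 in the adult libraries. Otx2 thus had higher folds than BCOR at P0 and in the adult and a like fold at E14, within lists whose depths are unknown. The second, chr7:53151882-53153026, had BCOR folds of 11.7 at E14, 9.78 and 16.2 in the P0 libraries and 10.6 and 14.4 in the adult libraries. Its Otx2 folds were 11.1 at E14, 40.6 and 38.5 in the P0 libraries and 23.5 and 65.2 in the adult libraries. Its 10 summits lay within 68 bases of each other. The third was chr4:115634923-115636124, with a summit range of 52 bases. It had BCOR folds of 6.80 at E14, 18.6 and 20.7 in the P0 libraries and 17.2 and 13.9 in the adult libraries. Its Otx2 folds were 12.1 at E14, 35.7 and 52.0 in the P0 libraries and 52.4 and 121 in the adult libraries.

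The rest of those 10 regions were chr11:95936558-95937477, chr12:113882155-113883446, chr2:84554864-84556469, chr17:83913418-83914081, chr11:118151217-118152192, chr10:86167781-86169311 and chr2:25838368-25839759, with mean percentiles of 6.19 to 7.42. Among all 10, the BCOR folds ran from 6.80 to 13.0 at E14, from 8.0 to 50.3 over both P0 libraries and from 8.13 to 19.9 over both adult libraries. Their Otx2 folds ran from 8.34 to 12.6 at E14, from 15.7 to 63.4 at P0 and from 11.3 to 121 in the adult. The highest BCOR folds of the 10, 23.4 and 50.3 at P0, were those of chr2:84554864-84556469. In the adult that region had BCOR folds of 8.65 and 11.7, and its Otx2 folds were 27.4 and 23.4 in the P0 libraries and 13.3 and 35.1 in the adult libraries.

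Members had stronger and wider peaks than the remaining regions in most lists. The median fold of the members was above that of all other regions in 9 of 10 lists. In the BCOR lists it was 8.69 for members and 5.26 for other regions at E14, 6.4 and 5.33 in P0 replicate 1, 9.75 and 5.94 in P0 replicate 2, and 6.97 and 5.40 in Adult replicate 2. The exception was BCOR Adult replicate 1, the shortest list, with 5.03 for members and 5.13 for other regions. In the Otx2 lists it was 9.08 for members and 5.86 for other regions at E14, 13.4 and 6.26 in P0 replicate 1, 13.8 and 6.43 in P0 replicate 2, 7.43 and 7.40 in Adult replicate 1, and 24.2 and 8.67 in Adult replicate 2. No test is given, since strong peaks enter all lists more readily. The strongest 25% of every list held 14 members, and 96 lay in the stronger 50% of every list.

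The order of the members by fold was alike between replicates and nearly unrelated between BCOR and Otx2 at P0. Across the 527 members, the Spearman correlation of fold was 0.85 between the P0 replicates of BCOR and 0.92 between those of Otx2, and 0.65 and 0.84 between the adult replicates of BCOR and Otx2. Between a BCOR and an Otx2 list of P0 it was 0.06 to 0.09, and between adult lists of the different proteins 0.24 to 0.31. Between the BCOR and the Otx2 list of E14 it was 0.54, above the 0.32 and 0.33 of BCOR at E14 with BCOR at P0 and the 0.32 and 0.32 of Otx2 at E14 with Otx2 at P0. BCOR at P0 and BCOR in the adult gave 0.46 to 0.52, and Otx2 at P0 and in the adult gave 0.65 to 0.66. These are descriptions over regions that share the library, its depth and its background, and both E14 lists reached higher q-values than the P0 lists. In 2604 regions that held peaks of all 4 P0 lists without being members, the correlation was 0.67 between the P0 replicates of BCOR, 0.89 between those of Otx2, and 0.01 to 0.05 between BCOR and Otx2.

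**Figure D1:**
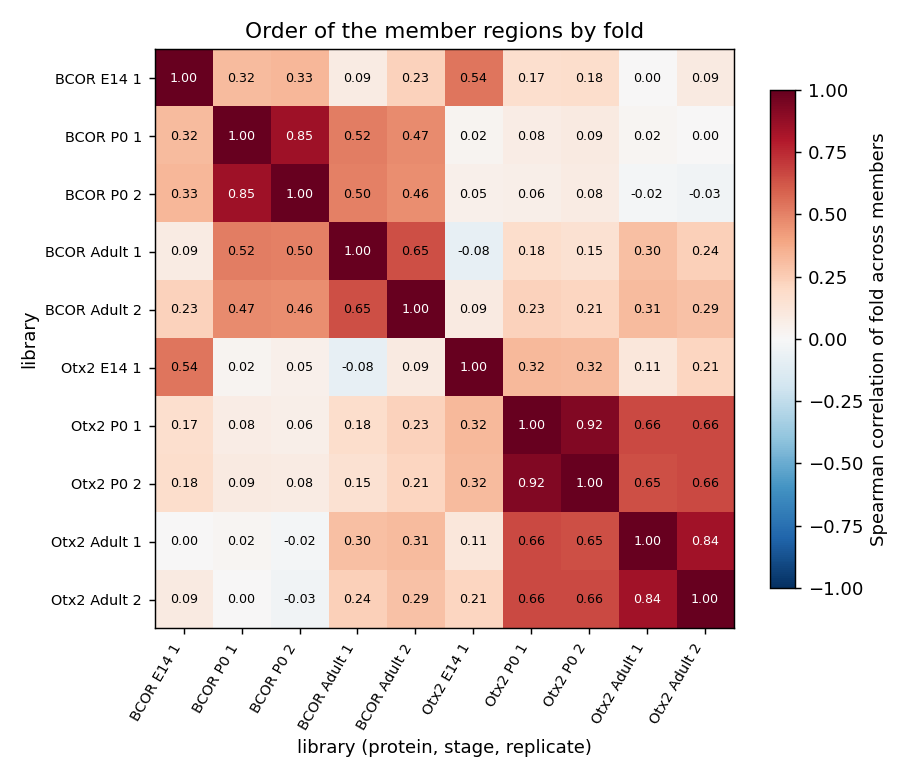
Spearman correlation of peak fold across the 527 members for each pair of the 10 libraries, with BCOR libraries first and Otx2 libraries after them (colour scale and printed values from -1 to 1). Replicates of a protein at P0 stand at 0.85 for BCOR and 0.92 for Otx2, BCOR against Otx2 at P0 stands at 0.06 to 0.09, and the E14 libraries of BCOR and Otx2 stand at 0.54.

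In some members every list of a single protein gave a better rank than every list of the other. Such ranks were better by comparison and did not have to be high. When the 527 members were ranked by fold within each list, 45 (8.54%) had all 5 BCOR ranks better than all 5 Otx2 ranks, and 22 (4.17%) had all 5 BCOR ranks worse. These counts are over the members alone. They were not set against other regions or against relabelled lists, so they stand as description. The 3 regions with the widest gap between the ranks of both proteins in each direction are given next, chosen after their values were seen. At chr15:88692243-88692938 the BCOR ranks were 71 at E14, 105 and 114 in the P0 libraries and 73 and 75 in the adult libraries, while the Otx2 ranks were 400 at E14, 376 and 378 in the P0 libraries and 477.5 and 479 in the adult libraries. At chr9:54348442-54350043 the BCOR ranks were 74 at E14, 9 and 8 in the P0 libraries and 10 and 7 in the adult libraries. The Otx2 ranks of this region were 393 at E14, 362.5 and 400 in the P0 libraries and 329 and 383.5 in the adult libraries. At chr4:148274478-148275417 the BCOR ranks ran from 23 to 162 and the Otx2 ranks from 373 to 486. The reverse order was seen at chr11:96838453-96839917, with BCOR ranks of 186 at E14, 359.5 and 228.5 in the P0 libraries and 356.5 and 315 in the adult libraries. Its Otx2 ranks were 40 at E14, 28 and 34 in the P0 libraries and 31 and 48 in the adult libraries. At chr11:23155134-23156227 the BCOR ranks ran from 322.5 to 485 and the Otx2 ranks from 87 to 165. At chr15:3945509-3946420 the BCOR ranks ran from 419 to 501 and the Otx2 ranks from 136 to 269. Between stages, 28 members (5.31%) had all 4 adult ranks worse than all 4 P0 ranks, and 25 (4.74%) had all 4 adult ranks better.

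The median width of BCOR peaks in the members was below that of Otx2 peaks at P0 and in the adult and above it at E14, but the proteins did not differ past the test over all stages. For each library the width of the highest-fold peak was taken in every member, and the median over members was used as a single value. For BCOR this median was 642 bases at E14, 507 and 657 in the P0 libraries and 332 and 413 in the adult libraries. For Otx2 it was 492 bases at E14, 699 and 715 in the P0 libraries and 446 and 716 in the adult libraries. At P0 and in the adult the libraries of the proteins did not overlap. Over all stages the mean of the library medians was 510.2 ± 142 bases for BCOR and 613.6 ± 133 for Otx2 (SD, n = 5 each), a difference of -103 bases for BCOR minus Otx2. An exact two-sided permutation test of the protein labels within stage gave p = 0.222 over 72 arrangements. The rule used the ends of the peaks, so widths in the members were partly fixed by the choice. No conclusion about the proteins is drawn from this test or its repeats. In every list the members had wider peaks than the other regions, from 332 against 260 bases in BCOR Adult replicate 1 to 716 against 422 bases in Otx2 Adult replicate 2. The narrowest BCOR peaks were those of the shortest lists, with 1339 and 2445 peaks, and with every list reduced to its 1339 strongest peaks by fold the difference was -253 bases over the 8 regions left (exact permutation p = 0.0556).

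**Figure D2:**
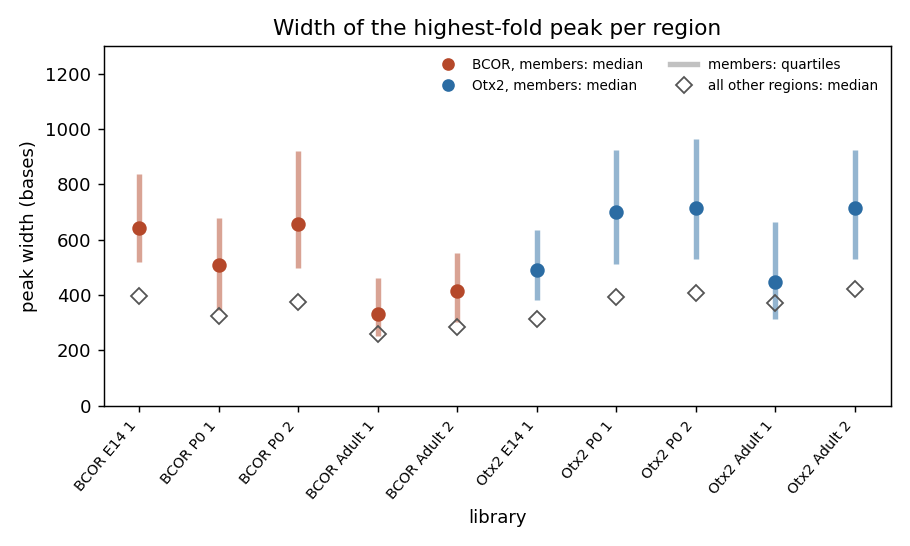
Width in bases of the highest-fold peak per region in each of the 10 libraries, with filled points for the median over the 527 members, bars for their quartiles and open diamonds for the median over all other regions. Member medians lie above the other regions in all 10 libraries, and BCOR lies above Otx2 at E14 (642 and 492 bases) and below it at P0 and in the adult.

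Each list seldom had more than 1 peak in a member, and the Otx2 lists had slightly more. BCOR lists held a mean of 1.025 peaks per member at E14, 1.036 and 1.036 in the P0 libraries and 1.034 and 1.036 in the adult libraries. Otx2 lists held 1.040 at E14, 1.051 and 1.063 in the P0 libraries and 1.053 and 1.038 in the adult libraries. All 5 Otx2 values lay above all 5 BCOR values, though the nearest were 1.036 for BCOR and 1.038 for Otx2. BCOR minus Otx2 was -0.0156 peaks in the mean (exact two-sided permutation test within stage, p = 0.0278, the smallest that 72 arrangements allow). Without the low-fold members described below the difference was -0.0121 and the exact permutation p was 0.0833, so the call ended without those regions. In the same exact permutation test it also ended when 100 bases of overlap were asked for before merging (-0.0159, p = 0.0833). It ended, too, without any one of BCOR E14 replicate 1, BCOR Adult replicate 1, BCOR Adult replicate 2 or Otx2 P0 replicate 2, with differences of -0.0116 to -0.0158 and exact permutation p-values of 0.0556 to 0.167. With every list reduced to its 1339 strongest peaks by fold, the difference was 0 over the 8 regions left.

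The summits of BCOR and Otx2 lay close together in most members, which the choice of regions with overlapping peaks partly fixed. How that choice bears on the difference between kinds of library pairs was not tested. Over the 25 pairs of a BCOR and an Otx2 library, the median distance between their summits in the 527 members was 40 to 61 bases, with a mean over pairs of 47.0. At E14 it was 42 bases, at P0 43 to 47 and in the adult 40 to 50. Over the 20 pairs of libraries of the same protein the mean was 39.8 bases. The difference of 7.29 bases had an exact two-sided permutation p of 0.0278, the smallest that 72 arrangements within stage allow, and the value was positive without each library in turn (5.29 to 9.48 bases). With every list reduced to its 1339 strongest peaks the direction turned, to -1.08 bases over the 8 regions left (exact permutation p = 0.806). Among BCOR libraries the distance was 31 to 53 bases with a mean of 44.3 over 10 pairs, which overlapped the distances between the proteins. Among Otx2 libraries it was 24 to 47 bases with a mean of 35.2 over 10 pairs. The adult BCOR replicates lay 43 bases apart, within the 40 to 50 bases between adult BCOR and adult Otx2 libraries, and the adult Otx2 replicates lay 29 bases apart, below all 4 of those distances. At P0 the BCOR replicates lay 31 bases apart and the Otx2 replicates 24, both below all 4 distances between the proteins (43 to 47 bases).

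**Figure D3:**
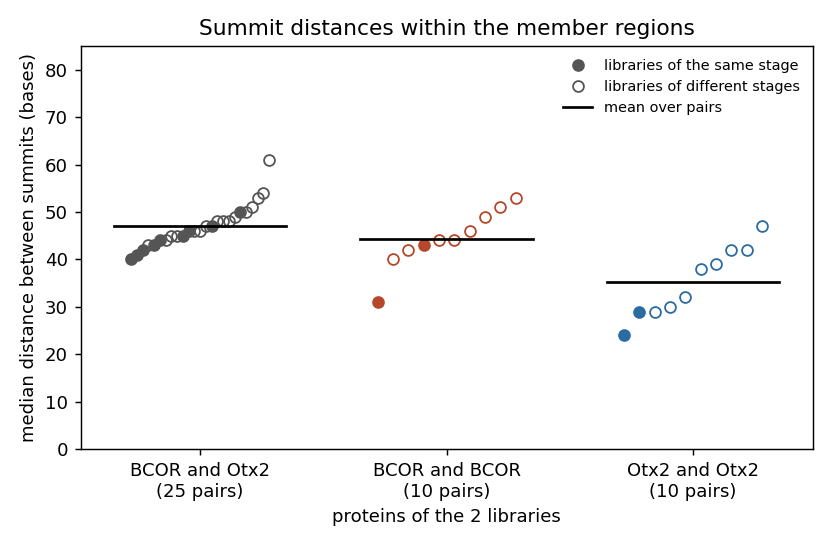
Median distance in bases between the summits of 2 libraries over the 527 members, 1 point per pair of libraries, filled for libraries of the same stage and open for libraries of different stages, with a line at the mean of each set. Pairs of BCOR with Otx2 have a mean of 47.0 bases, pairs of BCOR libraries 44.3 and pairs of Otx2 libraries 35.2, and the sets overlap.

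At P0, summits in the members were also closer than in regions outside the group that held peaks of all 4 P0 lists. In the members the median distance between BCOR and Otx2 summits at P0 was 43 to 47 bases over the 4 library pairs. In the 2604 regions with peaks of all 4 P0 lists that were not members the same pairs gave 48 to 60 bases. The distance between the P0 replicates was 31 bases in members and 44 in the 2604 regions for BCOR, and 24 and 31 bases for Otx2. The members were the lower in each of the 6 pairs. The pairs share libraries, and the members had stronger peaks at P0 than all other regions, so no test is given. The 2604 regions were not matched to the members by fold or width, and the low-fold members described below were kept in.

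The 10 summits of a member spanned 162 bases at the median, from 3 to 2990 bases. In 131 members (24.9%) all 10 summits lay within 100 bases, and in 54 they spanned more than 500. The 5 BCOR summits alone spanned 112 bases at the median and the 5 Otx2 summits 100. The 5 members with the smallest span were all low-fold members of chr9. The span was 3 bases at chr9:3034288-3035455 and chr9:3036833-3038261, 4 at chr9:3017717-3018960 and 5 at chr9:3016992-3017509 and chr9:3030271-3033258. All 16 low-fold members were then left out, a choice made after the values were seen. The smallest spans among the other members were 30 bases at chr19:14672305-14673397, 31 at chr1:88255447-88256389 and 34 at chr2:27395181-27396094.

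In 18 members (3.42%) the BCOR and Otx2 summits were set apart along the chromosome, with all 5 BCOR summits on a single side of all 5 Otx2 summits. BCOR lay at the higher coordinate in 12 and at the lower in 6. The mean summits of both proteins were 41.0 to 1188 bases apart in these 18, with a median of 229, against a median of 32.4 bases in the other members. The number of such regions moved by over 1.5 times without any of 6 libraries: it was 35 without BCOR E14, 40 and 37 without BCOR Adult replicates 1 and 2, 38 without Otx2 E14, 28 without Otx2 P0 replicate 2 and 31 without Otx2 Adult replicate 1. With 9 lists fewer summits have to lie apart, a looser condition by construction, and regions can enter the group. What each of these adds to the counts was not tested. At chr11:97140637-97142288 the BCOR summits lay 934 bases from the mean Otx2 summit at E14, 796 and 966 in the P0 libraries and 929 and 788 in the adult libraries, all toward the higher coordinate. The Otx2 summits of this region lay at 37 bases at E14, -25 and -25 in the P0 libraries and 10 and 5 in the adult libraries. The summits of the highest-fold peaks of both proteins thus lay apart in this region at every stage, with 1 library of each protein at E14. The region was chosen for summits that lie apart, so their separation is no separate finding. At chr3:40886651-40887620 the BCOR summits lay 193 bases from the mean Otx2 summit at E14, 212 and 212 in the P0 libraries and 177 and 193 in the adult libraries. There the BCOR summits spanned 35 bases and the Otx2 summits 20. This region was named after its values were seen. At chr4:83170325-83171697 the mean shift was 423 bases, and this region had BCOR folds of 4.98 and 4.39 in the adult, against 22.1 and 39.6 at P0.

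Other shifts did not hold one place in every library. At chr14:65205496-65208800, which had the largest mean shift, the BCOR summits lay within 84 bases of each other. The Otx2 summits there stood at -336 to -325 bases from their mean at P0 and in the adult, and at 1331 at E14. At chr4:102785093-102787719 the Otx2 summits of E14 and P0 lay 314 to 340 bases above their mean, next to the BCOR summits at 352 to 463, while those of the adult lay at -498 and -491. At chr17:56856120-56857411 the BCOR summits of E14 and P0 replicate 2 lay at 61 and 22 bases, and those of P0 replicate 1 and both adult libraries at 582 to 641.

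**Figure D4:**
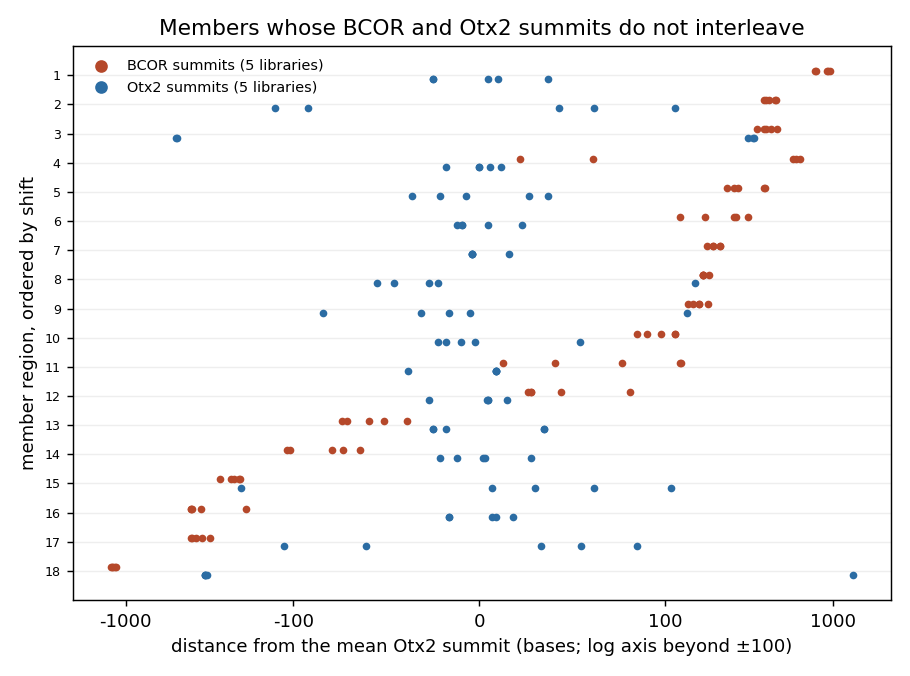
Place of the 5 BCOR summits (upper row of each pair) and the 5 Otx2 summits (lower row) in the 18 members whose summits do not interleave, as distance in bases from the mean Otx2 summit, with a log axis beyond 100 bases on either side and regions ordered by the mean shift of BCOR from Otx2. BCOR stands at the higher coordinate in 12 regions and at the lower in 6.

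All 5 of the widest members held more than 1 peak of some list. The widest with strong folds was chr16:96345950-96350445, of 4496 bases with 16 peaks and a mean percentile of 18.8. Its highest-fold peak lay near the same place in 8 libraries, and BCOR Adult replicate 2 and Otx2 Adult replicate 1 had theirs at -2349 and -2344 bases from the mean Otx2 summit. At chr11:49056614-49059993 the BCOR folds were 10.6 at E14, 5.31 and 5.31 in the P0 libraries and 4.01 and 3.90 in the adult libraries, and the Otx2 folds were 5.65 at E14, 10.1 and 11.1 in the P0 libraries and 33.5 and 79.6 in the adult libraries. The highest-fold peak of 4 BCOR lists and of Otx2 at E14 lay at -1569 to -1057 bases from the mean Otx2 summit there, and those of BCOR Adult replicate 1 and of the 4 remaining Otx2 lists at 318 to 435. chr17:39979951-39985747, the widest of all at 5797 bases, and chr9:3000041-3003748, with 25 peaks, were low-fold members.

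A set of 16 members had low folds in most lists at very high significance. These low-fold members, a set defined after the values were seen, lay in the weakest 25% of a list by fold in 7 or more of the 10 lists. The other 511 members did so in at most 6 lists. Low folds did not hold for the whole set at E14, where chr2:98506420-98507483 had the highest fold of all members in the lists of both proteins. The set held 14 regions at the start of the assembled chr9, between 3000041 and 3038261, and 1 region each at chr2:98506420-98507483 and chr17:39979951-39985747. The median −log10 q-value over the 10 lists was 123 to 8897 in the 16, with a median of 410, against a median of 24.2 and a highest value of 112 in the other 511. The weakest members by mean percentile were chr9:3009295-3010384 at 99.7, chr9:3004041-3004752 at 99.6 and chr9:3015204-3016213 at 99.3. At chr9:3004041-3004752 the BCOR folds were 2.70 at E14, 1.82 and 2.02 in the P0 libraries and 1.77 and 2.17 in the adult libraries, and the Otx2 folds were 2.78 at E14, 1.20 and 1.31 in the P0 libraries and 1.45 and 1.61 in the adult libraries. Folds in that region were thus near 1 at P0 and in the adult for Otx2, and highest at E14 for both proteins. At chr2:98506420-98507483 the BCOR folds were 19.5 at E14, 2.49 and 2.70 in the P0 libraries and 2.50 and 4.16 in the adult libraries. The Otx2 folds of that region were 21.3 at E14, 2.32 and 2.01 in the P0 libraries and 2.77 and 3.87 in the adult libraries.

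The summits of the low-fold members lay close together in most of them, and 8 of the 16 had all 10 summits within 10 bases, against 0 of the other 511. Their median summit span was 10 bases, against 163 in the other members. No peak of any list on chr9 started before 3000041, where the first of these regions begins. What these peaks share beyond place, fold and significance was not tested, and no list of an untargeted antibody was used here. Without the 16 members the difference in peak width was -105 bases (p = 0.222) and that in summit distance 7.77 bases (p = 0.0278, both exact permutation tests). The correlations of fold between BCOR and Otx2 lists at P0 became -0.03 to 0.00 without them. Those between adult lists of the different proteins became 0.17 to 0.25, and that between the E14 lists became 0.51.

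**Figure D5:**
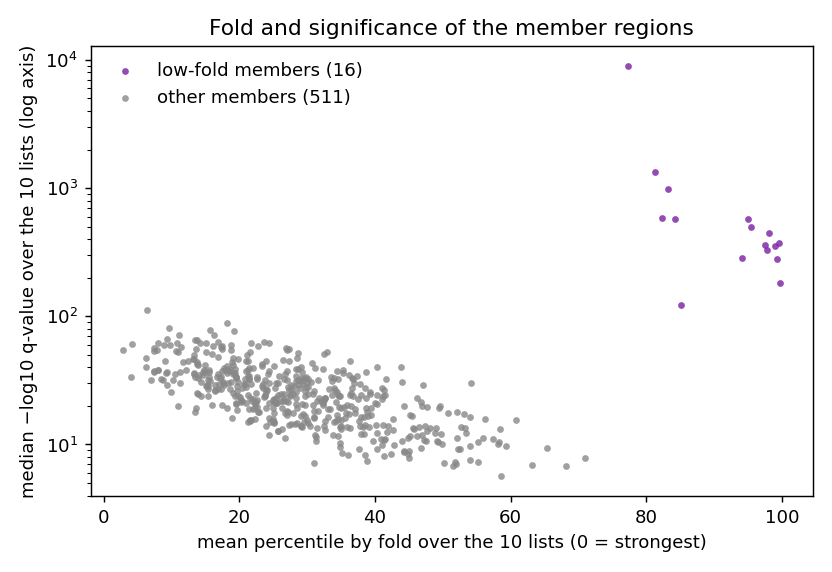
Median −log10 q-value over the 10 lists (log axis) against the mean percentile by fold over the 10 lists (0 is the strongest peak of a list) for each of the 527 members. The 16 low-fold members lie at median −log10 q-values of 123 to 8897 and high percentiles, apart from the other 511, whose values reach 112.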

How the data were processed

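One peak list a library was deposited, and the labels' description of each CUT&RUN sample names MACS2 as its peak caller. Trimmomatic, Bowtie2, deepTools and further tools appear, with no role or version, in the submitters' processing notes, which list mm10 and mm9 as builds. Control and threshold of the calls: not given in the sources used here. In each list the authors deposited a score, a fold (a ratio of signal over background), −log10 p-values and −log10 q-values, and the place of the summit. Scores and p-values were left aside. The lists hold chromosome names with random parts and chr1 peaks that end at up to 197068071, beyond the end of chr1 in mm10, so coordinates were read as mm9. The RNA samples of the series were not used, since regions could not be tied to genes. The members and the measures were chosen with earlier results of these data known. Python 3.11.15 with pandas 2.3.3 and numpy 2.4.6 merged the peaks, took the highest-fold peak of a list in a region and permuted the protein labels within stage over libraries. Merging, membership and the permutation tests of width and summit distance were run on simulated lists with a single peak of a list in each region. Peaks per region, summits set apart and the replicate block were not tried on simulated lists. Read depth is unknown, so no interval on counts is given. Regions named are the 10 strongest by mean percentile, the 5 widest, the 5 with the smallest summit span, the 5 with the largest shift between summits that do not interleave, the 3 weakest members and the 3 strongest regions with 9 lists; others are said to be chosen after the values were seen. The alternatives were a stricter q-value, more overlap, lists of equal length, each library left out, chromosome X, summed peak length, single-peak members and a replicate block.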

Additional observations from a re-analysis of the deposited data

Results flagged for a closer look

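The difference in median peak width between BCOR and Otx2 changed direction between stages: BCOR minus Otx2 was 150 bases at E14, with 1 library each, and -125 bases at P0 and -208.5 bases in the adult, where both BCOR libraries lay below both Otx2 libraries. The difference between stages was not tested. Outside chr1 to chr19, the same merging gave 6 regions with a peak of each of the 10 lists on chromosome X and 4 on chromosomes with random parts, places that the comparisons above did not use. No group of libraries held 4 or more samples, so single libraries were not examined for lying apart.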

How the results depend on the processing

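The group of 527 regions held 476 at a q-value of 0.01 or less, 527 with 100 bases of overlap, 533 with chromosome X and, added after seeing the data, 508 at a q-value of 0.05 or less and 511 without the low-fold members. With every list reduced to the 1339 strongest peaks it held 8. In those 8 the width difference was -253 bases, the summit difference turned to -1.08 bases (exact permutation p = 0.806), the difference in peaks per region was 0 (p = 1) and 0 regions had summits apart. With each library left out in turn the group held 527 to 820 regions, the most without BCOR Adult replicate 1, and 21 to 40 regions had summits apart, a looser condition with 9 lists. The width difference then ran from -140 to -71.8 bases, never past the threshold, the summit difference from 5.29 to 9.48 bases, past it each time (exact permutation p = 0.0278), and the difference in peaks per region from -0.0188 to -0.0116, past it in 6 of 10. Peaks per region also missed the threshold with 100 bases of overlap (-0.0159), without low-fold members (-0.0121) and at a q-value of 0.05 or less (-0.0165, exact permutation p = 0.0556). With the replicate block, which swaps labels within a stage and replicate number, the p was 0.25 for the width difference of -103 and 0.0625 for the summit difference of 7.29 and the peaks difference of -0.0156, the smallest that 32 arrangements allow. Deviations of replicates in fold correlated between BCOR and Otx2 at 0.0077 at P0 and 0.089 in the adult. Such values cannot settle whether the numbers pair the libraries, since different proteins are compared, so both forms of the permutation test are given. The cause of the changes between these settings was not tested.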
